A study of Mus musculus with 12 samples.

Results

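The genes described here are *Trp53*, which encodes p53, and 8 genes that p53 is known to activate: *Mdm2*, *Cdkn1a*, *Ccng1*, *Trp53inp1*, *Bbc3*, *Bax*, *Fas* and *Perp*. They were chosen by name, with earlier results of these data already known, and are 9 of the 46517 genes listed in the files. Of the 9, 8 passed the filter of 1 CPM (read counts scaled by TMM to a common library size) in at least 1 library and were among the 15673 genes tested, while *Fas* stayed below 1 CPM in every library.

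Polyadenylated RNA was sequenced from an *Eomes* reporter line of C57BL/6 mouse ESCs, with EGFP inserted at the start site of *Eomes*, in 4 groups of 3 libraries. WT ESCs and *Meteor* KO ESCs were taken at day 0, in the undifferentiated state on mouse embryonic fibroblast feeders, and both genotypes were taken again at day 3, after aggregation in hanging drops into embryoid bodies in a cardiac differentiation protocol. The KO cells carry a CRISPR-Cas9 nickase deletion of the *Meteor* enhancer upstream of *Eomes* and of its lncRNA, made in picked ESC clones. All groups carry the EGFP reporter, and whether the KO libraries come from a single clone is not given in the sources used here.

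p53 is a transcription factor that is held at a low level by MDM2, a ubiquitin ligase whose own gene p53 activates, so that the pair form a feedback loop. When DNA damage or other stress releases p53, its targets stop the cell cycle (*Cdkn1a*, the CDK inhibitor p21) or start apoptosis through the mitochondria (*Bax*, and *Bbc3*, which encodes PUMA) or a death receptor (*Fas*). Mouse ESCs are known for abundant p53 and a short G1 phase with little p21, and p53 also has a part in their exit from pluripotency and in mesendoderm differentiation.

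Between 17455927 and 23910943 reads were counted on genes per library. The labels were checked on the annotated transcripts of the *Meteor* locus. *Platr11* had 30 to 112 reads in WT at day 0 and 0 to 1 in KO, and 11 to 53 in WT at day 3 and 0 in KO. The KO libraries also lacked *Upf3b*, a factor of nonsense-mediated mRNA decay, with 0.224 to 0.661 CPM at day 0 and at most 0.0416 at day 3 against 45.4 to 55.8 in WT over both days. *Upf3b* cannot be told apart from the *Meteor* deletion in any KO-WT value below. The summed CPM of 8 pluripotency markers was 3537 to 4292 in WT and 5042 to 5396 in KO at day 0. At day 3 it was 706.4 to 1234.9 in WT and 1287.9 to 1374.5 in KO. The sum of 8 mesendoderm markers was 924.0 to 1844 in WT and 77.1 to 151.2 in KO at day 3. Library 3 was the lowest WT library of day 3 in both sums. The sum of 6 neuroectoderm markers was 134.5 to 228.1 in WT and 58.7 to 74.9 in KO at day 0. At day 3 it was 262.4 to 336.2 in WT and 312.2 to 354.3 in KO. For 7 primitive and visceral endoderm markers it was 54.6 to 198.2 in WT and 43.7 to 109.7 in KO at day 3. The sum of 12 fibroblast markers, for the feeders, was 99.5 to 311.8 in WT and 146.7 to 403.5 in KO at day 0, and 62.5 to 97.1 and 51.1 to 103.5 at day 3. The part of these shifts in the results below was not tested, and in bulk RNA fewer cells of a type and less RNA per cell cannot be told apart.

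p53 binds a response element made of a pair of decamers. The consensus element, with no spacer between the decamers, was searched on both strands in the 300 bases around RefSeq start sites (250 before and 50 after, GRCm38.p6), which were at hand for 7 of the 9 genes in 10 windows. The best match in each window was taken, and those of *Cdkn1a* and *Ccng1* are shown because they departed from the consensus at 1 of 20 bases. Of all 32851 windows, 29 (0.0883%) held a match with at most 1 mismatch. *Bax* is shown beside them, with 3 mismatches, and was picked because its RNA differed between the genotypes in the opposite direction. Its mismatches are at bases 3, 4 and 7, and bases 4 and 7 are the fixed C and G of the first decamer. Capitals mark the matched 20 bases, printed on the strand of the gene.
Cdkn1a (upstream start, plus strand, match at chr17:29090928-29090947): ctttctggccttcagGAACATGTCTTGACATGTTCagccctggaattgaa
Ccng1 (minus strand, match at chr11:40755462-40755481): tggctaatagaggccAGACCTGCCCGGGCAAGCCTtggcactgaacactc
Bax (minus strand, match at chr7:45467090-45467109): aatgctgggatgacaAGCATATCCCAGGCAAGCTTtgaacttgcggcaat
The *Cdkn1a* match began 51 bases before the more upstream of its RefSeq start sites, which lies 2790 bases before the downstream one, and the window of the downstream start held no match better than 5 mismatches. The *Ccng1* match began 195 bases before its start. The best matches of *Trp53*, *Bax* and *Bbc3* had 3 mismatches, and 6.29% of all windows hold a match with at most 3. Those of *Trp53*, which was lower in KO, are at bases 11, 12 and 20 and spare the fixed C and G of both decamers. Whether mismatches go with the direction of change was not tested. Those of *Mdm2* and *Fas* had 5. These are matches of letters, not measured binding. Sequence outside the windows, such as most of the introns, and elements with a spacer were not searched. A gene with no close match here may therefore hold an element that was not looked for.

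Levels were compared between genes per kilobase of exon, counting every annotated exon base of a gene once. This length exceeds the longest transcript for some genes, such as *Mdm2* (5083 against 3145 bases), *Cdkn1a* (3553 against 2080) and *Bax* (1576 against 1100). For *Ccng1* both are 3512. The order and overlaps below hold for this length, and may change with the length of the transcripts in use, which was not measured. In WT ESCs *Trp53* was the highest of the 9 genes, with a mean of 145 CPM per kb, and overlapped with *Ccng1* (127). *Bax* followed at 96.4, then *Trp53inp1* (52.1) and *Mdm2* (47.8), which overlapped with each other. *Bbc3* (20.6), *Cdkn1a* (19.7) and *Perp* (17.1) each overlapped with the next, and *Fas* was at 0.274. In WT at day 3 *Ccng1* was highest, at 103 CPM per kb, and *Trp53* next, at 74.7, without overlap between their libraries. In KO cells at day 3 the order began with *Bax* (93.3), *Ccng1* (73.9) and *Trp53* (61.2), again without overlap between neighbours. *Cdkn1a* (5.06) and *Perp* (3.84) were then the lowest but for *Fas* (0.0589).

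**Figure D1:**
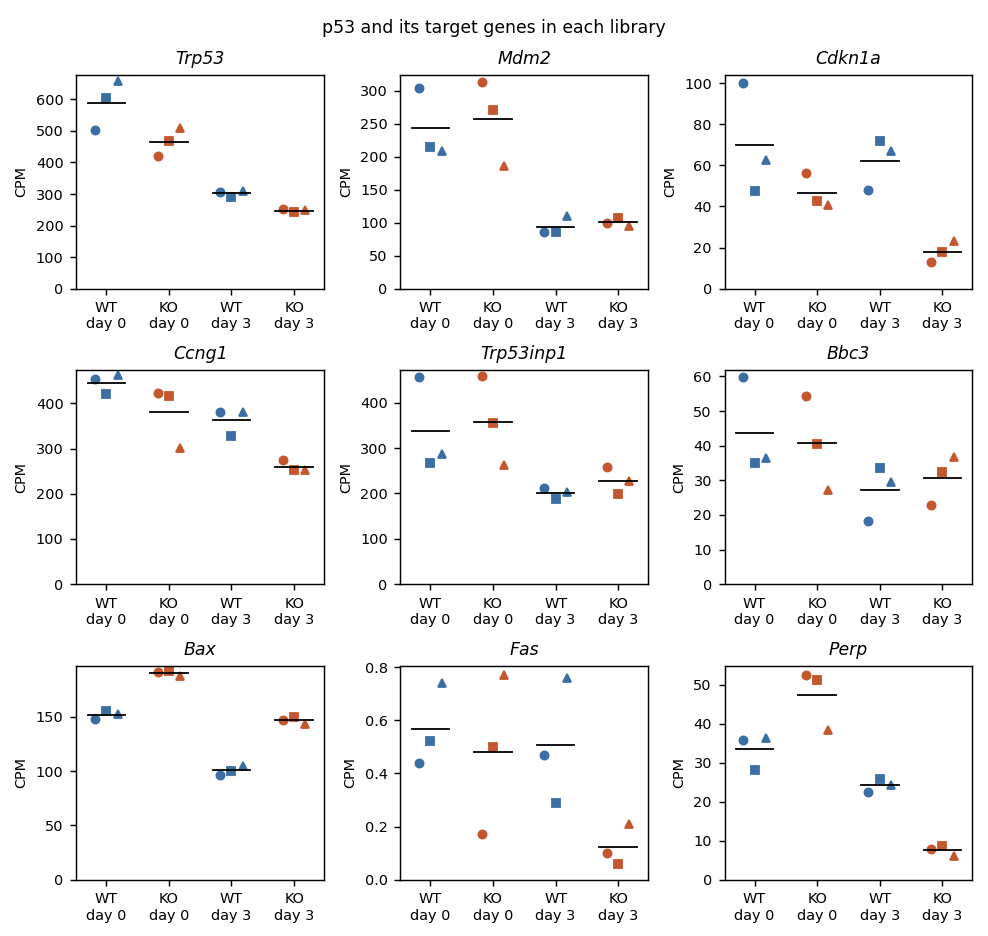
CPM (read counts scaled by TMM to a common library size, linear axes from 0) of each of the 9 genes in the 12 libraries, WT in blue and *Meteor* KO in orange, with circles, squares and triangles for replicate numbers 1, 2 and 3 and black lines for group means. *Trp53*, *Cdkn1a*, *Ccng1* and *Perp* are lowest in the 3 KO libraries of day 3. *Bax* is higher in KO than in WT at each day with no overlap, and *Fas* stays below 1 CPM.

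*Trp53* (chr11:69580359-69591873, plus strand, GRCm38) was lower in KO cells than in WT cells at both days, and fell with differentiation in both genotypes. WT libraries 1, 2 and 3 had 502, 604 and 658 CPM at day 0 and 308, 291 and 308 CPM at day 3. KO libraries had 420, 468 and 509 CPM at day 0 and 251, 242 and 249.7 CPM at day 3. At day 3 every KO library was below every WT library, while at day 0 the highest KO library lay above the lowest WT library and KO was lower in 3 of 3 pairs with the same number. The log2 fold change of KO against WT was -0.33 at day 0 (SE 0.09, edgeR adjusted p = 0.0226) and -0.29 at day 3 (SE 0.09, edgeR adjusted p = 0.0305), or a level 1.26 times as high in WT at day 0. Both calls are near the threshold. At day 0 the call is lost without any 1 of the 3 KO libraries or without WT library 2 or 3 (adjusted p of 0.0583 to 0.115), and at day 3 without KO library 2 or 3, without WT library 1 or 2, or without the replicate block (0.0514 to 0.193). With the replicate number as a block within each day, the adjusted p was 0.00127 at day 0 and 0.00192 at day 3.

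From day 0 to day 3 *Trp53* fell by 0.95 on the log2 scale in WT (SE 0.09, edgeR adjusted p = 2.07e-05) and by 0.91 in KO (SE 0.09, edgeR adjusted p = 1.77e-05). The difference of the KO effect between the days was 0.05 (edgeR adjusted p = 0.842). The WT course and the KO-WT comparisons share the WT libraries.

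*Mdm2* (chr10:117688875-117710758, minus strand), the ubiquitin ligase that restrains p53, fell with differentiation in both genotypes and did not pass the test between them. WT libraries had 304, 215 and 209 CPM at day 0 and 85.4, 86.3 and 110.2 CPM at day 3. KO libraries had 313, 270.0 and 186 CPM at day 0 and 99.1, 107 and 94.4 CPM at day 3. No library of day 3 overlapped with day 0, and the genotypes overlapped at each day. The fall was 1.34 on the log2 scale in WT (edgeR adjusted p = 0.000245) and in KO (edgeR adjusted p = 0.000199). KO against WT gave 0.08 at day 0 (95% interval -0.33 to 0.48) and 0.08 at day 3 (95% interval -0.33 to 0.5). A difference within these bounds is not excluded.

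*Cdkn1a* (chr17:29090976-29100727, plus strand), which encodes p21, had the largest decrease of the 9 genes in KO cells at day 3 among those tested. WT libraries had 99.8, 47.6 and 62.4 CPM at day 0 and 48.0, 71.6 and 66.7 CPM at day 3. KO libraries had 56.3, 42.4 and 40.7 CPM at day 0 and 12.9, 17.7 and 23.4 CPM at day 3. The 3 KO libraries of day 3 were below every other library, and WT replicate 1 at day 0 stood above all others. At day 3 the log2 fold change was -1.79 (SE 0.3, edgeR adjusted p = 0.00208), a level 3.47 times as high in WT, and 2.85 to 4.05 times in the 3 pairs. At day 0 KO was lower in 3 of 3 pairs but the groups overlapped, with a log2 fold change of -0.58 that did not pass the test (SE 0.29, edgeR adjusted p = 0.196). With the block within each day it was -0.54 and passed (edgeR adjusted p = 0.0104).

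Over differentiation *Cdkn1a* fell by 1.36 on the log2 scale in KO cells (SE 0.3, edgeR adjusted p = 0.00339). In WT the difference of day 3 from day 0 was -0.14 (edgeR adjusted p = 0.694). Whether the courses differ depends on the fit: the difference of the KO effect between the days was -1.22 (SE 0.42, edgeR adjusted p = 0.0758) with the number as a block across days, and -1.26 (edgeR adjusted p = 0.00126) with the block within each day. It also passed without WT replicate 1 of day 0, at -1.66 (edgeR adjusted p = 0.016), and without WT replicate 1 of day 3, at -1.46 (edgeR adjusted p = 0.039). A gene model of GENCODE M21 on the opposite strand overlaps 7.7% of the exon bases of *Cdkn1a* and is not among the genes of the files, so its reads, if any, may have been counted for *Cdkn1a*.

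*Ccng1* (chr11:40748552-40755311, minus strand) encodes cyclin G1, a p53 target that recruits a phosphatase to MDM2. WT libraries had 454, 421 and 463 CPM at day 0 and 382, 328 and 381 CPM at day 3. KO libraries had 422, 416 and 301 CPM at day 0 and 274, 252 and 253 CPM at day 3. The day 3 groups did not overlap, whereas at day 0 KO library 3 alone was far below WT. KO against WT was -0.49 on the log2 scale at day 3 (SE 0.11, edgeR adjusted p = 0.0107) and -0.24 at day 0, where it did not pass (edgeR adjusted p = 0.178). Without KO library 3 the adjusted p at day 3 was 0.0511. *Ccng1* fell by 0.55 from day 0 to day 3 in KO (edgeR adjusted p = 0.00243) and by 0.3 in WT (edgeR adjusted p = 0.0487), the latter a call that 9 of 20 alternatives lost.

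*Trp53inp1* (chr4:11156431-11174379, plus strand) encodes a nuclear protein that helps p53 to be phosphorylated and also acts in autophagy. WT libraries had 457, 266 and 288 CPM at day 0 and 213, 188 and 204 CPM at day 3. KO libraries had 458, 355 and 262 CPM at day 0 and 257, 199.7 and 227 CPM at day 3. At day 0 replicate 1 was the highest library of its group in both genotypes, and the genotypes overlapped at each day. The fall with differentiation was 0.7 on the log2 scale in WT (edgeR adjusted p = 0.00262) and 0.63 in KO (edgeR adjusted p = 0.0043). KO against WT did not pass at day 0, at 0.1 (edgeR adjusted p = 0.686), or at day 3, at 0.17 with KO higher in 3 of 3 pairs (edgeR adjusted p = 0.414).

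**Figure D2:**
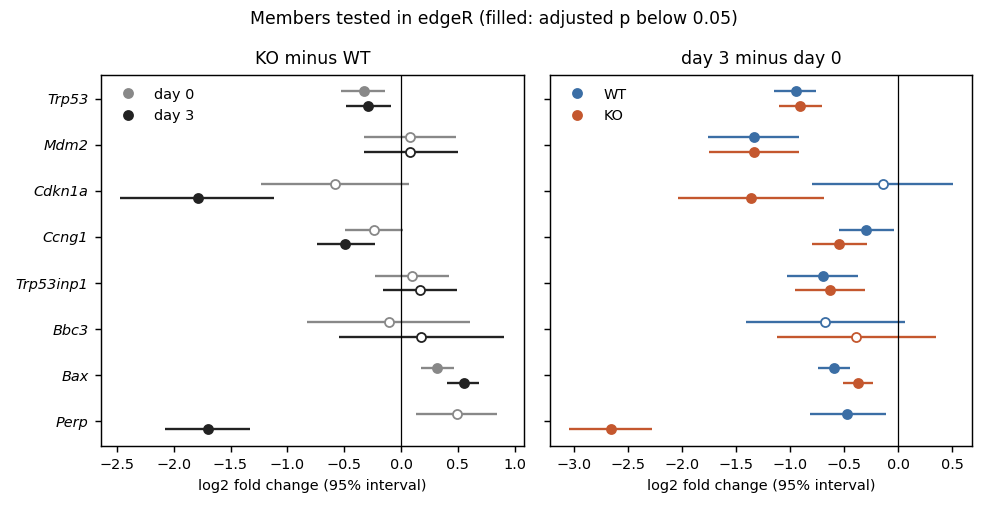
Log2 fold changes from edgeR of the 8 genes tested, with 95% intervals as lines and filled points where the adjusted p was below 0.05. The left panel gives KO minus WT at day 0 (grey) and day 3 (black), and the right panel gives day 3 minus day 0 in WT (blue) and KO (orange). *Cdkn1a* and *Perp* are the outlying genes at day 3, at -1.79 and -1.7, and *Bax* lies to the right of 0 at both days.

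*Bax* (chr7:45461697-45466898, minus strand) encodes the pore-forming protein that opens the outer mitochondrial membrane in apoptosis, and it was the only one of the 9 genes called higher in KO cells in edgeR's fit with the number as a block across days, while limma-voom, DESeq2 and the block within each day also called *Perp* higher at day 0. WT libraries had 148, 155 and 153 CPM at day 0 and 96.7, 100.4 and 105 CPM at day 3. KO libraries had 191, 192 and 187 CPM at day 0 and 147, 150.3 and 144 CPM at day 3. The groups overlapped at neither day, and the spread within a group was small. KO was higher by 0.32 on the log2 scale at day 0 (SE 0.06, edgeR adjusted p = 0.00645) and by 0.55 at day 3 (SE 0.06, edgeR adjusted p = 0.000337). Over differentiation *Bax* fell by 0.59 in WT (edgeR adjusted p = 5.39e-05) and by 0.37 in KO (edgeR adjusted p = 0.000712). The KO effect did not pass the test of a difference between the days, at 0.22 (edgeR adjusted p = 0.126). *Gm45808*, an overlapping gene of GENCODE M21, holds 9.5% of the 100-base stretches of the longest *Bax* transcript and is not among the genes of the files, so its reads may have been counted for *Bax*.

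*Bbc3* (chr7:16308393-16318205, plus strand), which encodes the BH3-only protein PUMA, passed edgeR's test in none of the 5 comparisons. WT libraries had 59.8, 34.99 and 36.4 CPM at day 0 and 18.3, 33.6 and 29.5 CPM at day 3. KO libraries had 54.4, 40.5 and 27.1 CPM at day 0 and 22.7, 32.3 and 36.8 CPM at day 3. Replicate 1 was the highest library of its group at day 0 and the lowest at day 3 in both genotypes. KO against WT was -0.11 at day 0 (95% interval -0.83 to 0.61) and 0.18 at day 3 (95% interval -0.55 to 0.91). From day 0 to day 3 the WT libraries did not overlap, with a log2 difference of -0.68 that missed the threshold in edgeR (adjusted p = 0.106) and passed it in DESeq2 (-0.73, adjusted p = 0.0428).

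*Fas* (chr19:34290666-34327772, plus strand), the death receptor, had too few reads for the filter. WT libraries had 8, 10 and 14 reads at day 0 and 10, 6 and 16 at day 3, and KO libraries had 3, 9 and 15 reads at day 0 and 2, 1 and 5 at day 3. The 3 KO libraries of day 3 held 8 reads in all, against 32 in WT, and lay below every WT library of that day. In the fit with no filter on low counts, over 28419 genes, KO against WT at day 3 was -2.0 (SE 0.59, edgeR adjusted p = 0.0235) and at day 0 -0.31 (SE 0.49, edgeR adjusted p = 0.812).

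*Perp* (chr10:18845020-18857073, plus strand) encodes a tetraspan membrane protein of desmosomes that was first described as an apoptosis effector of p53. WT libraries had 35.8, 28.3 and 36.3 CPM at day 0 and 22.6, 26.0 and 24.2 CPM at day 3. KO libraries had 52.6, 51.3 and 38.3 CPM at day 0 and 7.89, 8.58 and 6.03 CPM at day 3. KO lay above WT at day 0 and below it at day 3, with no overlap at either day. At day 3 the log2 fold change was -1.7 (SE 0.17, edgeR adjusted p = 0.000147), with WT 2.86 to 4.02 times as high in the 3 pairs. At day 0 it was 0.49 (SE 0.16) and just missed the threshold (edgeR adjusted p = 0.0549), which it passed with the block within each day (0.5, edgeR adjusted p = 0.0233).

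The effect on *Perp* therefore differed between the days by -2.19 on the log2 scale (SE 0.23, edgeR adjusted p = 0.00066). Over differentiation *Perp* fell by 2.66 in KO (SE 0.17, edgeR adjusted p = 1.7e-06) and by 0.47 in WT (edgeR adjusted p = 0.0299). The WT call was lost without WT replicate 1 or 3 of day 0 or WT replicate 1 or 2 of day 3 (edgeR adjusted p of 0.0569 to 0.166). At day 3 the sum of the mesendoderm markers was lower in KO, as were *Perp*, *Cdkn1a*, *Trp53* and *Ccng1*. In WT that sum was 42.7 to 166.0 CPM at day 0 and 924.0 to 1844 CPM at day 3, while *Perp* fell. In KO it was 52.5 to 68.7 CPM and 77.1 to 151.2 CPM, while *Perp* and *Cdkn1a* fell. The part of the mesendoderm shift in these differences was not tested.

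**Figure D3:**
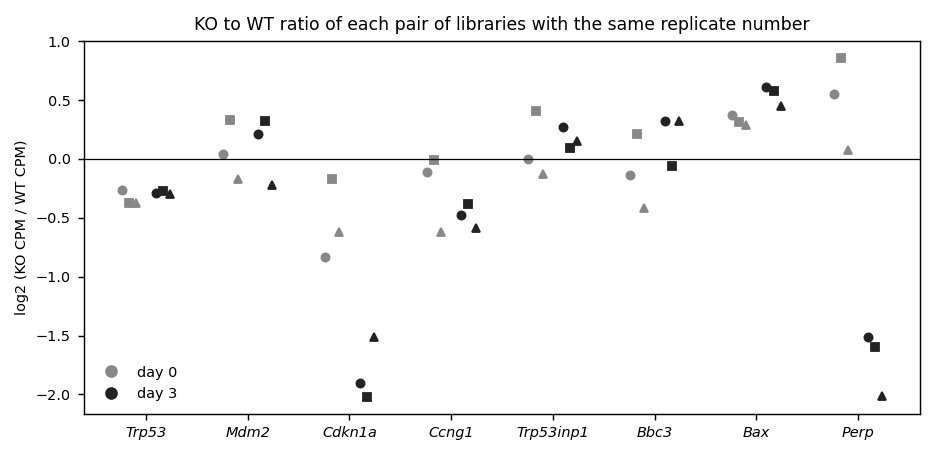
Log2 ratio of KO to WT CPM for each pair of libraries with the same replicate number (circle 1, square 2, triangle 3), at day 0 in grey and at day 3 in black, for the 8 genes tested. *Trp53* lies below 0 in all 6 pairs and *Bax* above 0 in all 6, whereas *Perp* changes sides between the days and *Mdm2* and *Bbc3* scatter around 0.

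Counted together, 1 of the 8 tested genes was higher and 1 lower in KO cells at day 0, where 9.56% of all tested genes were higher and 10.9% lower. At day 3 1 was higher and 4 were lower, against 14.3% and 16.7% of all tested genes. The count at day 3 fell from 5 genes to 3 without KO library 3. From day 0 to day 3 6 fell in WT and none had a difference above 0, where 30.7% of all genes rose and 25.5% fell. In KO 7 fell and again none had a difference above 0, against 29.4% and 27.2%. The KO effect differed between the days in 1 gene, lower at day 3, against 8.21% of all genes in the higher and 7.34% in the lower direction. The block within each day gave 2 higher and 2 lower genes at day 0, where it called 34.8% of all genes in either direction, and 2 lower in the difference between the days, against 31.2% of all genes. At day 3 it called 5 members, against 46.9%. The median log2 difference of the 8 genes over time was -0.63 in WT and -0.77 in KO (0.073 for all genes in WT). For KO against WT 4 of the 8 lay above 0 at each day, with a median of -0.02 at day 0 and -0.1 at day 3.

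The regulators of p53 were followed as a list of 21 genes, all tested. At day 0 5 were higher and 2 lower in KO cells, and at day 3 10 were higher and 2 lower. Of all tested genes 9.56% were higher and 10.9% lower at day 0, and 14.3% and 16.7% at day 3. The medians of the list were 0.09 at day 0 and 0.25 at day 3 on the log2 scale (-0.002 for all genes at day 3). *Mdm4*, the partner of MDM2 that blocks p53's activation domain, had 376, 326 and 232 CPM in WT and 696, 723 and 502 CPM in KO at day 0. Its log2 fold change was 1.04 at day 0 (SE 0.16, edgeR adjusted p = 0.00213) and 0.63 at day 3 (SE 0.16, edgeR adjusted p = 0.0151). At day 3 the KO libraries had 302 to 351 CPM and the WT libraries 207 to 228, so the genotypes overlapped at neither day. *Ppp1r13b*, which encodes the p53 cofactor ASPP1, was lower in KO at day 3, at 5.2, 5.85 and 4.37 CPM against 7.64, 8.13 and 19.6 in WT (-1.15, edgeR adjusted p = 0.0233). *Trp53bp1*, a DNA damage response protein that binds p53, was lower in KO at day 0 (-0.57, edgeR adjusted p = 0.00713) and not at day 3 (0.19, edgeR adjusted p = 0.228), with a tested difference between the days of 0.76 (edgeR adjusted p = 0.0122). Of the p53 family, *Trp63* was below the filter. *Trp73* had 11.9, 14.9 and 15.8 CPM in KO and 4.71, 7.07 and 6.28 CPM in WT at day 3, with no overlap (1.25, edgeR adjusted p = 0.00347).

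A list of 41 further p53 targets, of which 40 were tested, was followed by role. At day 0 8 were higher and 1 lower in KO, and at day 3 6 were higher and 1 lower, with medians of 0.09 and 0.05. The shares of all tested genes, here and for the roles below, were 9.56% higher and 10.9% lower at day 0. At day 3 these shares were 14.3% and 16.7%. With the block within each day the counts were 15 higher and 4 lower at day 0 and 8 higher and 6 lower at day 3, where that fit called 34.8% and 46.9% of all genes in either direction. Among the 8 cell cycle targets, 3 were higher and 1 lower at day 0, and 2 higher at day 3, where edgeR with the number as a block across days and limma-voom called none lower, and DESeq2 and an unadjusted p below 0.05 gave 1. With the block within each day 3 were higher and 1 lower at day 3, the latter *Plk2* (edgeR adjusted p = 0.0152), which was named after its values were seen. *Plk3*, a stress-responsive kinase, had 64.7, 51.5 and 46.9 CPM in WT and 114, 91.1 and 103 CPM in KO at day 0. At day 3 it had 6.15, 4.81 and 5.9 CPM in WT and 21.3, 23.0 and 18.1 CPM in KO, a log2 fold change of 1.89 (SE 0.14, edgeR adjusted p = 3.77e-05). *Plk3* was thus higher in KO at both days with no overlap, in the opposite direction to *Cdkn1a*. *Gadd45a*, a growth arrest gene, was higher in KO at day 3 (0.92, edgeR adjusted p = 0.0121), and *Sfn*, which encodes 14-3-3 sigma, was lower in KO at day 0 (-0.99, edgeR adjusted p = 0.0102).

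Of the 10 tested apoptosis targets, 1 was higher at day 0 and 2 at day 3, and none was lower in edgeR with the number as a block across days, limma-voom or DESeq2 or at an unadjusted p below 0.05. The block within each day gave 4 higher and 1 lower at day 0, and 2 higher and 1 lower at day 3. The lower gene was *Tnfrsf10b*, a death receptor named after its values were seen, at both days (edgeR adjusted p = 0.0283 and 0.0396). *Pidd1*, a death domain protein that activates caspase-2, was higher at day 3, at 51.5, 53.5 and 59.9 CPM in KO against 23.5, 28.0 and 38.2 in WT (0.89, edgeR adjusted p = 0.00297). *Ei24*, a protein of the endoplasmic reticulum, was higher by 0.24 at day 0 (edgeR adjusted p = 0.0381) and by 0.22 at day 3 (edgeR adjusted p = 0.0425). None of the 5 DNA repair targets was called in edgeR with the number as a block across days or in DESeq2 at either day, and 1 was lower at day 3 in limma-voom and at an unadjusted p below 0.05. The block within each day also called 1 lower at day 3, *Ddb2* (edgeR adjusted p = 0.0134), named after its values were seen. Of the 17 metabolic and other targets, 4 were higher at day 0, and 2 were higher and 1 lower at day 3. With the block within each day 8 were higher and 1 lower at day 0, and 3 were higher and 3 lower at day 3. In either direction that fit called 34.8% of all genes at day 0 and 46.9% at day 3. *Phlda3*, an inhibitor of AKT, was higher at both days, by 0.87 (edgeR adjusted p = 0.00326) and 0.81 (edgeR adjusted p = 0.00324). *Ak1*, adenylate kinase, was lower at day 3 (-0.95, edgeR adjusted p = 0.0075). *Cmbl* was called higher at day 0, but its libraries had 0.05 to 1.16 CPM at that day.

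Over differentiation the 40 tested targets went both ways. In WT 10 rose and 18 fell, and in KO 8 rose and 17 fell. Of all tested genes 30.7% rose and 25.5% fell in WT, and 29.4% rose and 27.2% fell in KO. *Pmaip1*, which encodes the BH3-only protein NOXA and was named after its values were seen, rose by 1.85 in WT (edgeR adjusted p = 3.52e-05) and by 1.35 in KO (edgeR adjusted p = 0.000155), while no member rose in either genotype. *Plk3* fell by 3.26 in WT (edgeR adjusted p = 2.83e-07) and by 2.3 in KO (edgeR adjusted p = 7.56e-07).

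**Figure D4:**
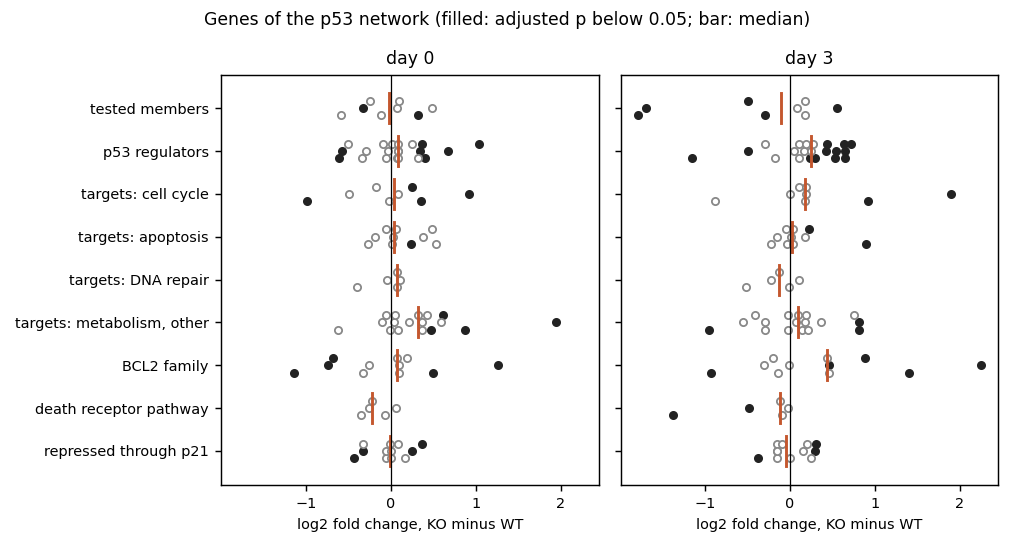
Log2 fold change of KO against WT at day 0 (left) and day 3 (right) for the 8 tested members and every tested gene of 8 lists (the p53 family is not drawn), with filled points at an adjusted p below 0.05 in edgeR and orange bars for list medians. The medians drawn stay between -0.22 and 0.43, and the tested members of day 3 spread from -1.79 to 0.55.

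The apoptosis machinery around *Bax* and *Bbc3* was followed in 11 genes of the BCL2 family. At day 0 2 were higher and 3 lower in KO, and at day 3 4 were higher and 1 lower. Of all tested genes 9.56% were higher and 10.9% lower at day 0, and 14.3% and 16.7% at day 3. Pairing the libraries within each day, 6 were higher and 2 lower at day 3, where that fit called 46.9% of all genes in either direction. *Hrk*, a BH3-only gene, had 14.5, 21.4 and 18.7 CPM in KO and 2.38, 5.1 and 3.95 CPM in WT at day 3, with no overlap (2.25, SE 0.39, edgeR adjusted p = 0.00222). *Bmf*, also BH3-only, was higher by 1.4 at day 3 (SE 0.19, edgeR adjusted p = 0.000716). *Bok*, a relative of *Bax*, was lower at day 0 (-0.74, edgeR adjusted p = 0.00912) and higher at day 3 (0.46, edgeR adjusted p = 0.0435), a tested difference of 1.19 (edgeR adjusted p = 0.00629). In the pathway downstream of *Fas*, 5 of 6 genes were tested, none was called at day 0 in edgeR, limma-voom or DESeq2 (1 at an unadjusted p below 0.05), and 2 were lower at day 3. *Casp8*, the initiator caspase of death receptors, had 14.3, 13.3 and 16.1 CPM in WT and 6.09, 4.2 and 6.49 CPM in KO (-1.38, edgeR adjusted p = 0.00334). *Cflar*, its inhibitor, was lower by 0.48 on the log2 scale (edgeR adjusted p = 0.0165).

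Finally, 12 cell cycle genes that p21 is known to repress were followed beside *Cdkn1a*. At day 3, where *Cdkn1a* was lower in KO, 2 were higher and 1 lower, and at day 0 2 were higher and 2 lower. Of all tested genes 14.3% were higher and 16.7% lower at day 3, and 9.56% and 10.9% at day 0. The block within each day gave 4 higher and 2 lower at day 3, and 3 higher and 3 lower at day 0. In either direction that fit called 46.9% of all genes at day 3 and 34.8% at day 0. *Cdk1*, the mitotic kinase, was higher in KO by 0.37 at day 0 (edgeR adjusted p = 0.0102) and by 0.29 at day 3 (edgeR adjusted p = 0.0233). *Cdc25c*, the phosphatase that activates CDK1, was lower by 0.38 on the log2 scale at day 3 (edgeR adjusted p = 0.0261), and *Top2a*, topoisomerase II alpha, was -0.43 at day 0 (edgeR adjusted p = 0.0123). The median of the list was -0.05 at day 3.

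The genes with the pattern most like those of 3 members were found among 10613 protein-coding genes by the root mean square difference of mean-centred log2(CPM + 1) over the 12 libraries. For *Trp53* they were *Tbc1d25* (0.118), *Yes1* (0.153) and *Nufip2* (0.156), where the SD of *Trp53* itself was 0.499. For *Mdm2* they were *Sesn2* (0.168), itself a p53 target, *Ncoa1* (0.18) and *Fhod3* (0.181), with an SD of 0.702. For *Cdkn1a* they were *Atf3* (0.32), a stress-induced transcription factor, *Dsp* (0.348), which encodes desmoplakin, and *Ttc28* (0.353), with an SD of 0.808. The likeness rests on 12 libraries in 4 groups and is a description.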

How the data were processed

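The sequenced RNA was polyadenylated. The authors trimmed single reads (Cutadapt 1.3), mapped them to the GRCm38 mouse genome (STAR 2.4.2a) and summed them per Ensembl gene (HTSeq 0.6.1), and the deposited files hold the raw counts. Alignments that were not unique, 36.52% to 44.09% of the HTSeq total including its summary lines, are not in the gene counts. The strand setting is not given in the sources used here. The HTSeq summary lines were left out.

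Genes above 1 CPM in at least 1 library were tested with the quasi-likelihood test of edgeR 4.0.16 (R 4.3.3) after TMM normalization. The model held the 4 groups and a block across days for libraries sharing a number. That block was assumed to stand for the batch factor in the study's methods, which do not say what the batches were. Benjamini-Hochberg adjustment ran over all 15673 genes, and genes were called at an adjusted p below 0.05 with no fold change minimum. SEs were derived from the log2 fold change and the F statistic. The labels do not say whether libraries come from separate cultures, so p-values measure the spread between libraries, which may be technical. No pair of replicates agreed within sampling noise.

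Libraries of WT and KO with a shared day and number strayed from their group means in the same direction over 10901 genes (correlations of 0.341 to 0.732 in 6 pairs), while the same number across days gave -0.247 to 0.0843. The number therefore pairs libraries within a day only, as read from the data. The block across days, which gave the main p-values, does not follow that pairing. The block within each day is given for members where it changed a call, and for lists where it moved a count of calls by over 1.5 times.

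The 9 genes and all lists were chosen with earlier results of these data known. List genes are named where they were called between genotypes at either day or in the difference between the days, and had the 3 largest log2 fold changes of their list. The fit was run on simulated counts in which libraries were independent, with no replicate or day effect, and set changes only in KO at day 0. That run therefore does not show how the main p-values behave with the pairing seen here. Loci and exon lengths come from GENCODE M21, and promoter sequences from RefSeq GRCm38.p6. *Perp* and *Trp53inp1* have no promoter window here. Alternatives were limma-voom (limma 3.58.1), DESeq2 1.42.0, RLE normalization, other filters, no block, the 6 libraries of a comparison, replicate numbers 1 and 2 only, and each library left out in turn.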

Additional observations from a re-analysis of the deposited data

Results flagged for a closer look

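In edgeR with the number as a block across days, *Perp* was the only member whose KO effect differed between day 0 and day 3 by a test of the difference itself, at -2.19 on the log2 scale (SE 0.23, edgeR adjusted p = 0.00066). KO was above WT in 3 of 3 pairs at day 0 and below it in 3 of 3 pairs at day 3. *Cdkn1a* also passed with the block within each day, at -1.26 (edgeR adjusted p = 0.00126). Over 20 alternatives the value of *Perp* lay between -2.36 and -2.02.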

How the results depend on the processing

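With the replicate block within each day, the members called at day 0 rose from 2 to 4, the further targets from 9 to 19 at day 0 and from 7 to 14 at day 3, and the difference between the days gave 2 members in place of 1 and 10 further targets in place of 5. The share of all tested genes called rose with it, to 34.8% at day 0, 46.9% at day 3 and 31.2% in the difference between the days. This pairing added *Cdkn1a* (day 0 and the difference between the days) and *Perp* (day 0) and changed no other member call. The fit on the 6 libraries of a comparison also gave 4 members and 19 further targets at day 0 and 14 further targets at day 3. DESeq2 and the fit with no filter on low counts gave 2 members in the difference between the days. With replicate numbers 1 and 2 only, 0 members (3 at an unadjusted p below 0.05, no other tool run) and 4 further targets were called at day 0 in edgeR, and 2 further targets in the difference between the days. The cause of these moves was not tested.

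Leaving out 1 library at a time, the counts at day 0 were 1 to 2 members (1 without any 1 of the 3 KO libraries or without WT replicate 2) and 3 to 11 further targets (3 without KO replicate 2, 4 without WT replicate 3). At day 3 they were 3 to 5 members (3 without KO replicate 3), and in the difference between the days 1 to 2 members and 2 to 6 further targets (fewer by over 1.5 times without 9 of the 12 libraries).

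Of 816 alternative values for 40 results on single members, 745 kept direction and side of the threshold, 29 lost the call, 15 gained it and 27 changed direction. The changes of direction were all of differences that had not passed the test. KO against WT at day 0 ranged, over the fits that each left out 1 library, from -0.05 to 0.26 for *Mdm2*, from -0.01 to 0.26 for *Trp53inp1* and from -0.46 to 0.26 for *Bbc3*, which was 0.01 with numbers 1 and 2 only. At day 3 the ranges were -0.08 to 0.35 for *Mdm2* and -0.11 to 0.42 for *Bbc3*, and the WT course of *Cdkn1a* ranged from -0.4 to 0.25. The difference between the days ranged from -0.02 to 0.14 for *Trp53*, from -0.17 to 0.28 for *Mdm2* (-0.00341 with at least 10 counts in every library), from -0.09 to 0.19 for *Trp53inp1* (-0.03 with numbers 1 and 2 only) and from -0.08 to 0.64 for *Bbc3*.

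Depth limits *Fas*, which had 1 to 16 reads a library. The block within each day gives no value for the comparisons over time, since no block spans both days.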
